A study of Mus musculus with 2 samples.

Results

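The genes of T cell receptor signalling were examined for Gata3 binding in mouse TH2 cells. The set holds 38 named protein-coding genes, of 21938 on chromosomes 1 to 19, X and Y in the GENCODE M21 annotation of GRCm38. They fall into 16 kinases and adaptors, 11 negative regulators, 3 genes of the NFAT family and 8 genes of the NF-κB branch. The group called kinases and adaptors also holds the phosphatase gene *Ptprc*, the phospholipase gene *Plcg1* and the exchange factor genes *Vav1*, *Vav3*, *Rasgrp1* and *Sos1*. They were picked by name for their place in the pathway, and each was taken with its gene body and the 10 kb upstream of its start.

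Gata3 was measured by ChIPmentation, in which chromatin bound by an anti-Gata3 antibody is cut and tagged on the beads by a transposase. There were 2 libraries of the same condition, replicates 1 and 2, made from splenic TH2 cells grown in culture. The study's methods describe such cells as naïve CD4+ T cells stimulated through CD3 and CD28 with IL-2, IL-4 and a blocking antibody to IFN-γ. No treated or mutant group, input or IgG library was analysed here, the genotype of the mice is not given in the sources used here, and the extraction protocol of the labels names ILC2 where the other fields name TH2 cells.

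An engaged T cell receptor is phosphorylated by the Src-family kinase Lck, recruits Zap70, and is coupled by the adaptors Lat and Lcp2 to the phospholipase Plcg1. The second messengers made by Plcg1 release calcium, which lets calcineurin send NFAT to the nucleus, and activate Prkcq and Rasgrp1, which lead to NF-κB and to Ras. Phosphatases, ubiquitin ligases and diacylglycerol kinases limit the signal. Gata3 is the transcription factor that directs naïve CD4+ cells into the TH2 programme, and GATA factors recognise the letters GATA with an A or a T before them and an A or a G after them, written WGATAR.

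The libraries held 40526613 and 24970952 reads. A peak was a run of 200-bp windows with more reads than the surroundings (exact Poisson test, one-sided, with a q of 0.01 by the Benjamini-Hochberg method in each library). It was called shared where peaks of both libraries overlapped, and a gene was given the peaks whose library 1 summit lay in its region. Its height is the number of reads in the summit window per 1000000 reads of the library (RPM), and where 1 height is given it is the lower of both libraries. Of the marker loci of TH2 cells, 6 of 6 had a shared peak, the tallest between 1.24 RPM at *Il1rl1* and 5.43 RPM at *Il13*. Of those of TH1 cells 2 of 3 did, *Tbx21* with 1.72 RPM and *Ifng* with 0.346 RPM, so the TH1 and TH2 heights overlapped. Over all protein-coding genes 39.3% had a shared peak. The marker counts are small and were not tested against this share or against each other. Nothing in the labels says that the libraries came from separate cultures, so tests between them cover counting error alone.

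Gata3 peaks were found at most of the receptor signalling genes. A shared peak lay in the region of 32 of the 38 genes (84.2%), against 39.3% of all protein-coding genes. The regions of the 38 genes were longer than those of genes in general, with a median of 60.0 kb against 27.4 kb, and long regions hold more peaks, as described further on. The 38 regions held 131 shared peaks, or 4.16 per 100 kb against 1.18 over all genes. Within 2 kb of the start of the gene record, 11 of the 38 genes had a shared peak (28.9%), against 11.7% of all genes.

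By step, a shared peak was found at 14 of 16 kinases and adaptors (71 peaks), at 10 of 11 negative regulators (36 peaks), at 3 of 3 NFAT genes (8 peaks) and at 5 of 8 NF-κB genes (16 peaks). The median region length of these steps was 69.9, 53.0, 117 and 27.4 kb, in that order. Per 100 kb, shared peaks were most frequent at NF-κB genes (4.91) and least frequent at NFAT genes (2.40), with no test between the steps. The genes without a shared peak were *Lat*, *Vav1*, *Ptpn6*, *Bcl10*, *Nfkb2* and *Rela*. Under a q of 1e-10 in each library, 21 genes kept a shared peak, against 12.8% of all protein-coding genes. With peaks built at the q of 0.01 only from windows at least 5-fold over the background, 19 genes did, against 15.3% of all. *Rasgrp1*, *Csk*, *Grap2* and *Lcp2* were among the 13 that lost their call.

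**Figure D1:**
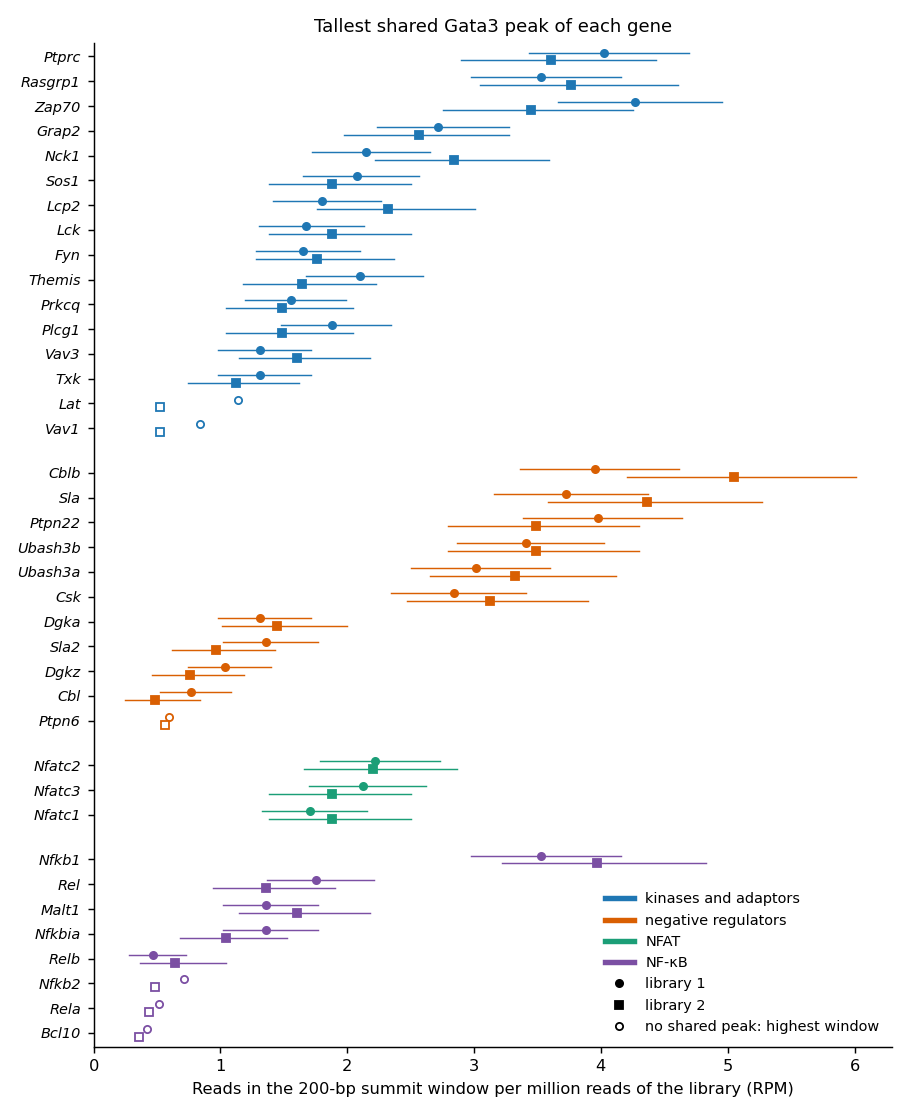
Height of the tallest shared Gata3 peak of each gene in library 1 (circles) and library 2 (squares), in RPM, with 95% exact Poisson intervals that cover counting error only. Open symbols show the highest window of the 6 genes without a shared peak, at most 1.14 RPM in library 1 and 0.561 RPM in library 2, and the tallest peaks lay at *Cblb*, *Sla*, *Ptprc*, *Rasgrp1*, *Nfkb1*, *Ptpn22*, *Zap70* and *Ubash3b*.

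The DNA under the tallest peak of each step is given first, over the 200 bp around the summit that were searched for motifs. Sequences are from the reference genome GRCm38, on the plus strand and 5′ to 3′. Capitals mark WGATAR on either strand, where the core GATA reads TATC if the motif is on the minus strand, and the AP-1 site TGACTCA, which reads TGAGTCA on the other strand. Each of these summits holds WGATAR.
Ptprc, intron 2, chr1:138136601-138136800: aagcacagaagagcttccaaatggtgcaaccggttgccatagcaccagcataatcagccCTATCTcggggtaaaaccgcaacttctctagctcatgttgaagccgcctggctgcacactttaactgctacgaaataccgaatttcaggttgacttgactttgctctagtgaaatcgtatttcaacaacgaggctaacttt
Cblb, intron 3, chr16:52081951-52082150: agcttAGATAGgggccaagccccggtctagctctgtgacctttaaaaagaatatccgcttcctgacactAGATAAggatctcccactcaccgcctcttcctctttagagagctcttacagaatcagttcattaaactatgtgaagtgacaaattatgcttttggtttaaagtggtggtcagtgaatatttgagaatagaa
Nfatc2, upstream of the principal transcript, chr2:168595751-168595950: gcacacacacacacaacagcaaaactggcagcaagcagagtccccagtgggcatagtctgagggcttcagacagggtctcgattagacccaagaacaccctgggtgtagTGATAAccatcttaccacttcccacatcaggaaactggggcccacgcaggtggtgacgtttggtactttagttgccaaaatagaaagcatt
Nfkb1, intron 1, chr3:135688901-135689100: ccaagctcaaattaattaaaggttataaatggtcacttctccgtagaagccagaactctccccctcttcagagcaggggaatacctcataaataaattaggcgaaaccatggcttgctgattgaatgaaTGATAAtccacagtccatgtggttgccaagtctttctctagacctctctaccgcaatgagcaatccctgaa

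The peaks were not alike in these motifs, and the next set was chosen after the values had been seen to show how they differed. For each gene 1 summit is shown, the tallest at *Zap70*, *Sla* and *Grap2* and a lower one at the others. The summits shown for *Zap70* and *Lcp2* hold several copies of WGATAR, with an AP-1 site beside them at *Zap70*. Those shown for *Sla* and *Ubash3b* hold an AP-1 site without WGATAR, and those shown for *Grap2* and *Nfkb1* hold neither. Other summits of these genes differ. WGATAR lay at 5 of 8 shared summits of *Sla*, 2 of 4 of *Ubash3b*, 3 of 5 of *Grap2* and 5 of 8 of *Nfkb1*. The summit in intron 1 of *Ptpn22* holds 18 overlapping matches, all in a run of the 4 letters CTAT repeated in tandem.
Zap70, intron 1, chr1:36768901-36769100: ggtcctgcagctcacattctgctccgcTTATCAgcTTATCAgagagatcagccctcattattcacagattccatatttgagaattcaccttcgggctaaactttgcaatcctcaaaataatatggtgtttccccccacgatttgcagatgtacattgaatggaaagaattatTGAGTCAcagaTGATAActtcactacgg
Lcp2, before the start, chr11:34046701-34046900: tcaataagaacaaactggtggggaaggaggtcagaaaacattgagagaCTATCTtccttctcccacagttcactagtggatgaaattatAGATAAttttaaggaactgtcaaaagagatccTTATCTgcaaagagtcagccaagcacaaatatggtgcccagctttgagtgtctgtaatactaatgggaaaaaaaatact
Sla, intron 2, chr15:66807451-66807650: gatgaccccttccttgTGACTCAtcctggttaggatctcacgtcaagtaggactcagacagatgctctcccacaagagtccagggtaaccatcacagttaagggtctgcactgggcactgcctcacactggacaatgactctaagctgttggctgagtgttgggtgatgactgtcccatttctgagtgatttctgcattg
Ubash3b, intron 1, chr9:41064301-41064500: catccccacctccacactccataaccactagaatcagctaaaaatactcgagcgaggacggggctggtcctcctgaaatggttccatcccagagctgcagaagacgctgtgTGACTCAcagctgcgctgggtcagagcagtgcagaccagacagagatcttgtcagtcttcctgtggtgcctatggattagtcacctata
Grap2, upstream of the principal transcript, chr15:80581351-80581550: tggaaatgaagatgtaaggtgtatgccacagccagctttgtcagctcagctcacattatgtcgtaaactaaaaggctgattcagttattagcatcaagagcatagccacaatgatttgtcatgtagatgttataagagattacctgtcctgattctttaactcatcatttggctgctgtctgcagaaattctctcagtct
Nfkb1, intron 3, chr3:135663401-135663600: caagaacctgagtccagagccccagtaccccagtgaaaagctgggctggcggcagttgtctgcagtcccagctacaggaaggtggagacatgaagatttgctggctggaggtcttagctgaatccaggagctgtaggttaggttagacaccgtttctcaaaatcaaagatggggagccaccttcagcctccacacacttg
Ptpn22, intron 1, chr3:103873151-103873350: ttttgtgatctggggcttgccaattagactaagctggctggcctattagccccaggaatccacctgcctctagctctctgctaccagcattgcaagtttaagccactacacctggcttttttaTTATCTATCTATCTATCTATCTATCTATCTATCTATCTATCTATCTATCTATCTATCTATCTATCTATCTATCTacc

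Among the kinases and adaptors, the tallest peak by the lower of both libraries lay at *Ptprc*, which encodes CD45, the receptor phosphatase that keeps Lck ready for activation. Its summit in intron 2, 39.0 kb from the start, held 163 reads in library 1 and 90 in library 2, or 4.02 and 3.61 RPM. A second summit in intron 1, 0.558 kb from the start, reached 3.48 and 3.49 RPM. Both stood among the highest shared peaks of the genome, at the 98.4 and 98.1 percentile. In all, 8 shared peaks lay in *Ptprc*, each with WGATAR within 100 bp of its summit, and 3 of them exceeded 2 RPM in both libraries.

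*Rasgrp1* encodes the exchange factor that activates Ras in response to diacylglycerol. Its tallest summit lay in exon 1, 0.101 kb from the start, with 143 and 94 reads, or 3.53 RPM in library 1 and 3.77 RPM in library 2. The other 4 shared peaks of *Rasgrp1* were lower, with 0.617 to 1.60 RPM in library 1.

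*Zap70* encodes the kinase that binds the phosphorylated receptor chains. It had 2 shared peaks and both were tall. The summit in intron 1, 7.20 kb from the start, held 173 and 86 reads (4.27 and 3.45 RPM), and the summit 1.15 kb upstream of the start held 129 and 97 reads (3.18 and 3.89 RPM). Library 1 was higher at the first and library 2 at the second, and in each library alone the taller of the 2 exceeded the tallest summit of *Ptprc*. Over the merged interval, the ratio of library 2 to library 1 was 0.775 at the first (adjusted p = 0.0134, two-sided exact binomial test with Benjamini-Hochberg adjustment over all shared peaks) and 1.02 at the second.

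*Grap2* encodes the adaptor Gads, which joins Lcp2 to Lat. Of its 5 shared peaks, 4 lay inside the gene record but before the first exon of its principal transcript, at 8.86, 10.6, 21.3 and 39.9 kb from the start of the record. The tallest reached 2.72 and 2.56 RPM and the next 2.62 and 1.88 RPM, and at the latter the ratio of library 2 to library 1 was 0.62 (adjusted p = 1.6e-04, exact binomial test). *Nck1*, an adaptor that connects the receptor to the cytoskeleton, had 3 shared peaks, the tallest in intron 1 with 2.15 and 2.84 RPM. *Sos1*, a second exchange factor for Ras, had its tallest peak 4.80 kb upstream with 2.07 and 1.88 RPM, and a low one of 0.691 and 0.761 RPM 0.297 kb before the start.

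The other 8 kinases and adaptors with a shared peak held 45 of the 71 peaks, with their tallest between 1.12 and 1.80 RPM. At *Lck*, the kinase that starts the cascade, 5 peaks were shared. The tallest stood 8.66 kb upstream of the start of the gene record (1.68 and 1.88 RPM), and 2 more stood 1.56 and 0.809 kb upstream of it. The peak at 1.56 kb held 65 reads in either library, so that it was higher for its depth in library 2 (1.60 against 2.60 RPM, interval ratio 1.67, adjusted p = 0.0012, exact binomial test). A peak of 0.988 and 0.881 RPM lay 3.01 kb before the start of the principal transcript of *Lck*, which begins inside the gene record.

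*Lcp2*, the adaptor that assembles the signalling complex on Lat, had 7 shared peaks. Its summit 0.12 kb before the start reached 2.84 RPM in library 1 and 1.72 RPM in library 2, and the ratio of the libraries there was 0.699 (adjusted p = 0.0074, exact binomial test). Its summit in intron 2 reached 1.80 and 2.32 RPM. The gene lies within the record of *4930469K13Rik*, so all 7 summits belong to both.

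Some long genes of this step held many peaks, low ones among them. *Themis*, needed for thymocyte development, and *Prkcq*, the protein kinase C that leads to NF-κB, had 9 each. Their heights ran from 0.561 to 1.64 RPM at *Themis* and from 0.441 to 1.48 RPM at *Prkcq*. *Vav3*, a guanine nucleotide exchange factor, had 8 over 355 kb, of which the tallest reached 1.31 and 1.60 RPM. *Fyn*, the second Src-family kinase of T cells, had 2 over 207 kb, the taller with 1.65 and 1.76 RPM in intron 2, and neither was shared where the summits of the libraries had to lie within 100 bp. *Plcg1* had 3, with 1.88 and 1.48 RPM in intron 1, and *Txk*, a Tec-family kinase, had 2, the taller with 1.31 and 1.12 RPM upstream of the start at the neighbouring gene *Tec*.

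Among the negative regulators, 5 genes had a peak above 3 RPM in both libraries. By the lower of both libraries, the tallest of all 131 peaks lay in intron 3 of *Cblb*, the ubiquitin ligase that sets the need for costimulation. It held 160 reads in library 1 and 126 in library 2, or 3.95 RPM (95% exact Poisson interval 3.36 to 4.61) and 5.05 RPM (4.21 to 6.01). The ratio of the libraries over its interval was 1.21 (adjusted p = 0.0371, exact binomial test). *Cblb* also had the most shared peaks, 11 over 187 kb, all in introns and all with WGATAR at the summit, of which the lowest reached 0.42 and 0.561 RPM.

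*Sla* encodes an adaptor that promotes removal of the receptor from the cell surface. It had 8 shared peaks over 61.0 kb, and 4 of them exceeded 2 RPM in both libraries. The tallest summit, in intron 2, reached 3.73 and 4.37 RPM, the next in intron 1 reached 3.28 and 3.49 RPM, and another in intron 1 reached 2.54 and 3.21 RPM. *Sla* lies within the thyroglobulin gene *Tg*, so its peaks are counted for both genes.

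*Ptpn22*, a phosphatase that acts on Lck and Zap70, had its tallest peak 8.99 kb upstream, at the neighbouring gene *Bcl2l15*, with 161 and 87 reads (3.97 and 3.49 RPM). Its 3 other shared peaks lay in introns and reached at most 1.63 RPM in library 1 and 1.60 RPM in library 2. *Ubash3b* and *Ubash3a* encode the 2 members of a phosphatase family that restrains Zap70. The tallest peak of *Ubash3b* lay in intron 1, 43.4 kb from the start, with 3.41 and 3.49 RPM, and that of *Ubash3a* lay in intron 6 with 3.01 and 3.33 RPM. No difference between the libraries passed the exact binomial test at these tall peaks, with interval ratios of 0.958 at *Ptpn22*, 0.958 at *Ubash3b* and 1.16 at *Ubash3a*.

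*Csk*, the kinase that holds Lck inactive, had 2 shared peaks, of 2.84 and 3.13 RPM and of 2.35 and 2.56 RPM, neither with WGATAR nor with an AP-1 site within 100 bp. The other members of this step were lower. *Dgka* and *Dgkz*, which remove diacylglycerol, had 1 shared peak each, with 1.31 and 1.44 RPM at *Dgka*, where the summit also lies at *Pym1*, and 1.04 and 0.761 RPM at *Dgkz*. *Sla2*, an adaptor related to *Sla*, had 1 with 1.36 and 0.962 RPM. *Cbl*, the ubiquitin ligase related to *Cblb*, had 2 over 101 kb, with 0.765 and 0.481 RPM at the taller, without WGATAR at either summit.

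**Figure D2:**
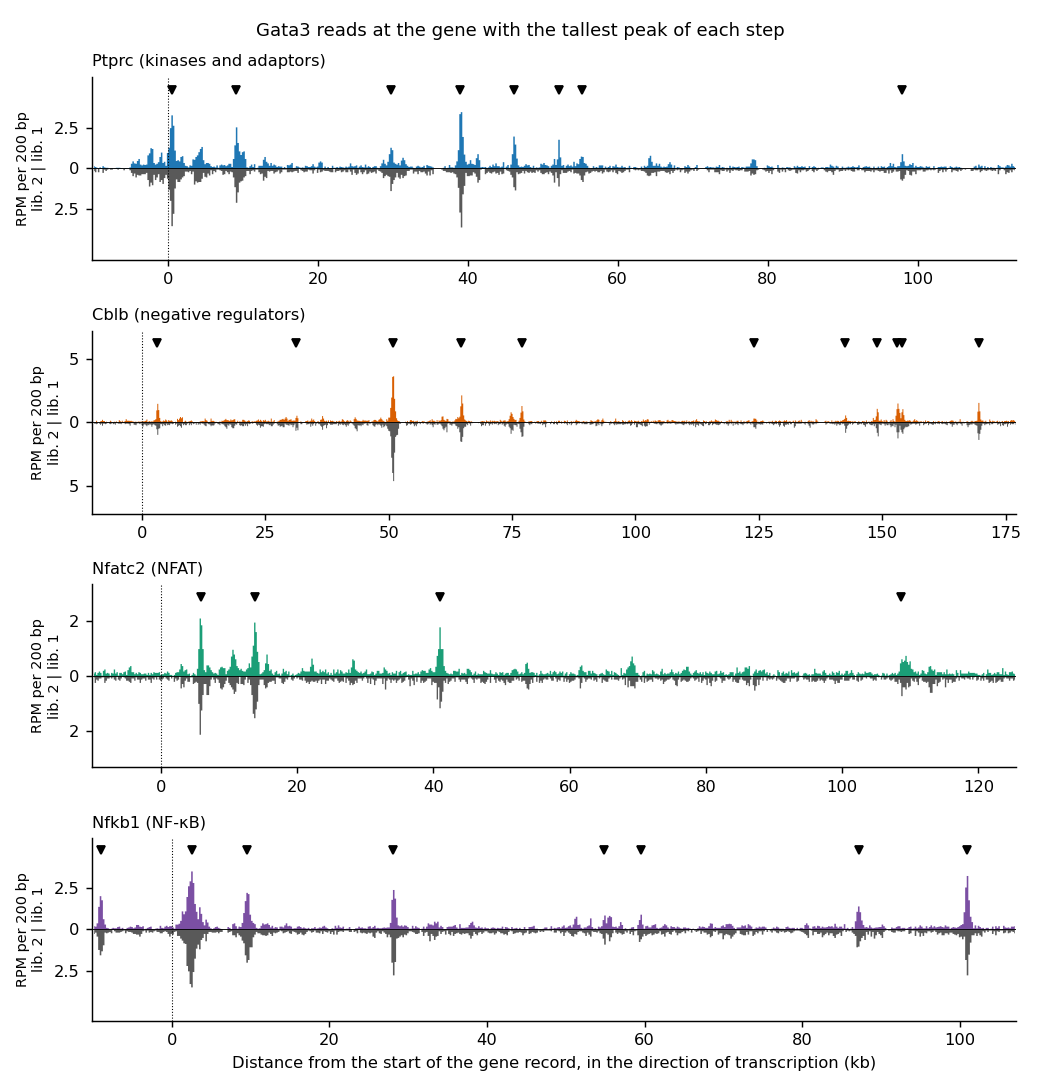
Reads per 200 bp, in RPM, along the gene with the tallest peak of each step, by distance from the start of the gene record in the direction of transcription (kb). Library 1 is drawn upwards in colour and library 2 downwards in grey, triangles mark the summits of shared peaks, and the tall peaks are seen at the same places in both libraries, as in intron 3 of *Cblb* at 50.8 kb.

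The 3 NFAT genes encode factors that calcineurin brings into the nucleus. *Nfatc2* had 4 shared peaks, of which the tallest lay 5.81 kb into the gene record, before its principal transcript, with 90 and 55 reads (2.22 and 2.20 RPM). The next, in intron 1, reached 2.07 and 1.64 RPM. *Nfatc3* had 1 shared peak, 0.54 kb before its start, with 86 and 47 reads (2.12 and 1.88 RPM). *Nfatc1* had 3, with 1.70 and 1.88 RPM, 1.90 and 1.40 RPM, and 1.53 and 1.16 RPM, each with WGATAR at the summit. The peaks of *Nfatc1* lay 20.6 to 105 kb from its start, and none lay within 2 kb of it.

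In the NF-κB branch the most peaks lay at *Nfkb1*, which encodes the precursor of an NF-κB subunit and has the longest region of the branch. It held 8 of the 16 shared peaks, or 6.84 per 100 kb, against 6.80 at *Rel* and 7.55 at *Nfkbia*. The tallest, in intron 1 and 2.55 kb from the start, held 143 and 99 reads (3.53 and 3.97 RPM). Others reached 3.26 and 2.68 RPM in intron 22, 2.52 and 2.80 RPM in intron 3, 2.64 and 2.12 RPM in intron 1, and 2.35 and 1.84 RPM upstream of the start. The fold of the tallest peak over its local background was 3.34 and 3.92, below that of the peak in intron 22 (6.26 and 5.30), since the surrounding 5 and 10 kb held many reads as well.

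*Rel*, which encodes c-Rel, had 3 shared peaks, with 1.75 and 1.36 RPM, 1.85 and 1.28 RPM, and 1.16 and 1.28 RPM. The second of these, in intron 1, had the lowest ratio of library 2 to library 1 of the 131 peaks (0.536, adjusted p = 1.5e-04, exact binomial test). *Malt1*, the protease of the complex that Bcl10 forms, had 3, the tallest in intron 12 with 1.36 and 1.60 RPM. *Nfkbia*, which encodes the inhibitor IκBα, had 1 in intron 2, 1.10 kb from its start, with 1.36 and 1.04 RPM. *Relb* had 1 of 0.469 and 0.641 RPM, 0.288 kb from its start, which was not called in both libraries with 100-bp windows or after library 1 had been thinned to match library 2.

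The 6 genes without a shared peak each had at least 1 peak in library 1 alone and none in library 2. At *Lat*, the scaffold to which Lcp2 and Plcg1 bind, the highest window, 8.03 kb upstream of the start, held 46 reads in library 1 (1.14 RPM, 5.16-fold over the background) and 13 in library 2 (0.521 RPM, 3.25-fold). *Vav1*, an exchange factor related to *Vav3*, had 34 reads (0.839 RPM) and 13 reads (0.521 RPM). At *Ptpn6*, a phosphatase that restrains the cascade, the highest windows held 24 and 14 reads (0.593 and 0.561 RPM).

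The exact Poisson p of the window in library 2 was 2.7e-04 at *Lat*, 0.0036 at *Vav1* and 5.6e-05 at *Ptpn6*, above the 3.9e-05 that the threshold of library 2 required. In the NF-κB branch, *Nfkb2* had 29 and 12 reads in its highest windows, *Rela*, the main activating subunit, had 21 and 11, and *Bcl10*, the partner of Malt1, had 17 and 9. These windows ranged from 0.42 to 0.716 RPM in library 1 and from 0.361 to 0.481 RPM in library 2. *Lat*, *Vav1* and *Ptpn6* gained a shared peak with 400-bp windows, and *Dgkz* lost its only one. With regions extended to 50 kb upstream, *Lat*, *Vav1*, *Ptpn6*, *Nfkb2* and *Rela* gained a shared peak. In those regions 37 of the receptor signalling genes had a shared peak, against 58.5% of all genes.

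WGATAR lay within 100 bp of 96 of the 131 summits (73.3%, 95% exact interval 64.8% to 80.6%, for counting error alone). It was present in 37.0% of windows of the same size placed 1 kb to either side. Over all 23806 shared peaks of the genome the shares were 70.9% at the summits and 33.2% beside them. By step, the sequence was found at 77.5% of the summits of kinases and adaptors (55 of 71), 66.7% of negative regulators (24 of 36), 75% of NFAT genes (6 of 8) and 68.8% of NF-κB genes (11 of 16). Among the 96 summits, the nearest copy stood at a median of 27.5 bp from the summit.

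Copies of WGATAR were often more than 1, at 37 of the 131 summits, and 3 summits held 10 or more. These 3 lay in intron 11 of *Lck* (10 copies), 9.57 kb upstream of *Lcp2* (12 copies) and in intron 1 of *Ptpn22* (18 copies). Their heights were 0.641, 1.38 and 1.16 RPM. All copies at *Lck* and *Ptpn22*, and most at *Lcp2*, are overlapping matches in a tandem repeat of CTAT, not separate sites. Copies were counted around the library 1 summit, and at this peak of *Lck* the library 2 summit lay 400 bp away. At 13 of the 32 genes every shared summit had WGATAR, *Ptprc* and *Cblb* among them, and at 5 genes none had it, namely *Fyn*, *Csk*, *Cbl*, *Sla2* and *Relb*.

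The AP-1 site TGACTCA or TGAGTCA, bound by Fos and Jun proteins, lay within 100 bp of 9 summits (6.87%), against 2.67% of the windows beside them. Over all shared peaks it was found at 12.3% of summits and 3.53% of the windows beside them. It stood together with WGATAR at 5 summits and without it at 4, while 91 had WGATAR alone and 31 had neither. By step, AP-1 was found at 3 of 71 summits of kinases and adaptors, 5 of 36 of negative regulators, 0 of 8 of NFAT genes and 1 of 16 of NF-κB genes. Summits without either motif included tall ones, up to 2.84 RPM at *Csk*, and their median height was 0.962 RPM against 1.16 RPM for those with WGATAR alone.

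**Figure D3:**
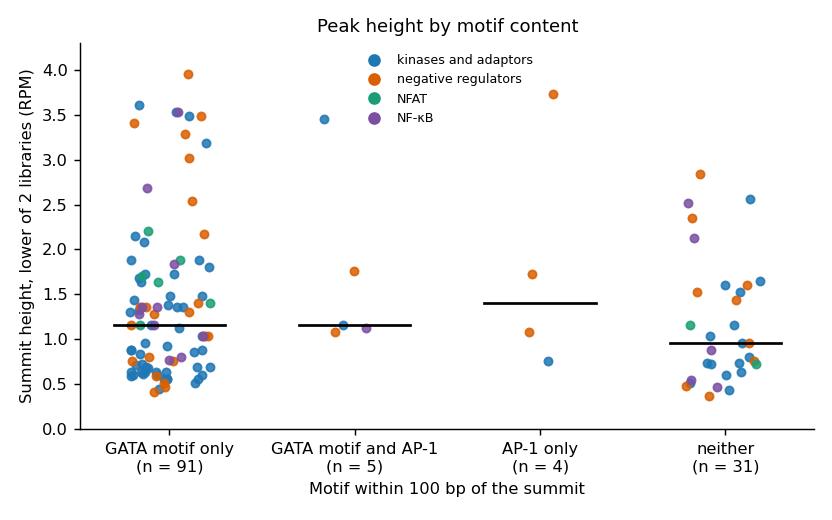
Height of the 131 shared peaks (the lower of both libraries, RPM) by motifs within 100 bp of the summit, coloured by step, with the median as a bar. Of the peaks, 91 had the GATA motif only, 5 had it with AP-1, 4 had AP-1 only and 31 had neither, and tall and low peaks occurred with and without the GATA motif.

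The gene bodies held 114 of the 131 summits (87.0%) and made up 87.9% of the bases of the regions. Leaving out those within 2 kb of a start, 96 of the 131 summits (73.3%) stood in introns of the principal transcript, 2 in exons, 10 lay 2 to 10 kb upstream and 11 lay inside the gene record but outside the principal transcript. The remaining 12 stood within 2 kb of the start, at *Lck* (2 peaks), *Zap70*, *Prkcq*, *Lcp2*, *Rasgrp1*, *Sos1*, *Ptprc*, *Dgka*, *Nfatc3*, *Relb* and *Nfkbia*. Thus 7 of the 16 kinases and adaptors had a peak at the start of the gene record, against 11.7% of all protein-coding genes. So did 1 of 11 negative regulators, 1 of 3 NFAT genes and 2 of 8 NF-κB genes. Counting the start of any protein-coding transcript, 7 kinases and adaptors and 2 negative regulators (*Csk* and *Sla* in place of *Dgka*) had such a peak. So did 1 NFAT gene and 2 NF-κB genes, against 14.3% of all protein-coding genes. The peaks of *Lck* near the start of its record lay 16.1 and 16.8 kb before its principal transcript. The difference between the steps was not tested. Intron 1 held 30 of the 100 summits in any intron, those within 2 kb of a start included. The share of intron 1 in the bases was not assessed.

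The number of peaks moved with the length of the region. Across the 38 genes, which share both libraries, the number of shared peaks and the length had a Spearman rho of 0.731, and over all 21938 genes rho was 0.452. In regions of up to 20 kb, 1 of 3 receptor signalling genes had a shared peak, against 18.7% of all genes of that length. The counts were 8 of 11 for 20 to 50 kb (38.8% of all genes), 12 of 13 for 50 to 100 kb (60.2%), 8 of 8 for 100 to 200 kb (72.9%) and 3 of 3 above 200 kb (73.8%). Region length therefore moves with the count, and its part in the result was not tested.

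**Figure D4:**
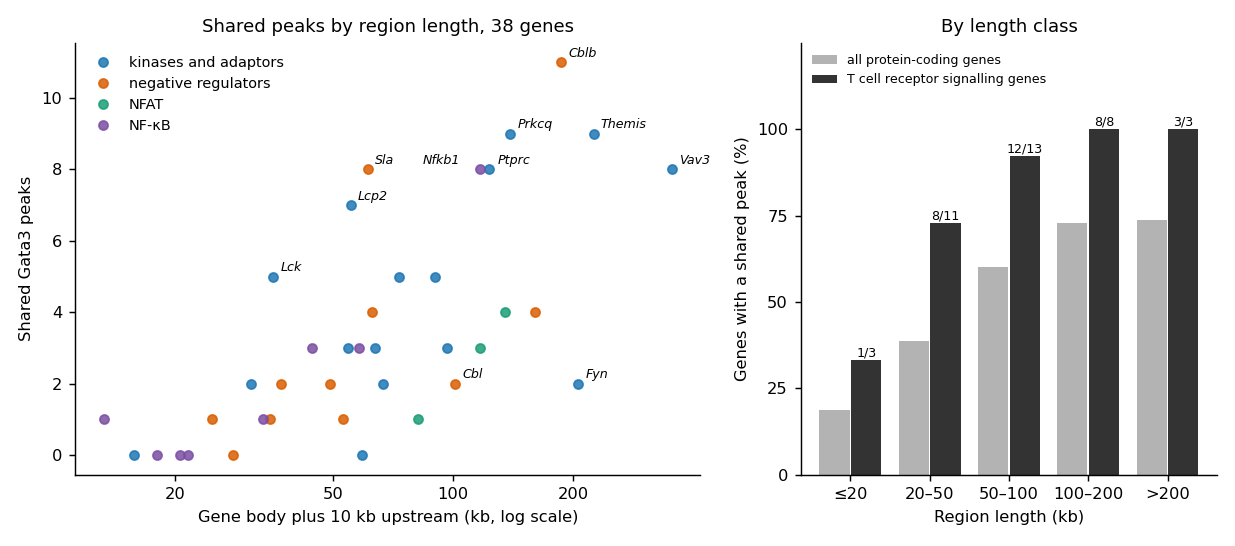
Shared peaks against the length of the gene body plus 10 kb upstream (kb, log scale) for the 38 genes, and the share of genes with a shared peak by length class for all protein-coding genes (grey bars) and for the receptor signalling genes (black bars, with counts). *Cblb* had the most peaks (11), *Sla* and *Lcp2* had 8 and 7 in regions of 61.0 and 55.4 kb, and *Fyn* had 2 in 207 kb.

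Reads over whole regions, which use no peak call, gave the same order of magnitude in both libraries. The read density of the region over the mean of the library had a median of 2.16 in library 1 and 2.18 in library 2 over the 38 genes, against 1.36 and 1.34 over all protein-coding genes. It was above the library mean in both libraries at 38 of the 38 genes and at 72.6% of all genes. The highest was *Sla* with 5.11 in library 1 and 5.40 in library 2. *Zap70* followed with 4.33 and 4.08, *Lcp2* with 3.95 and 3.77, *Nfkb1* with 3.59 and 3.73, *Csk* with 3.57 and 3.69 and *Ptprc* with 3.50 and 3.35. The lowest were *Cbl* with 1.30 and 1.20 and *Nfatc3* with 1.42 and 1.36. *Nfatc3* nonetheless had a peak of 1.88 RPM near its start, so a density low among the 38 genes went together with a single shared peak of this height. Among all protein-coding genes its density, 1.39 as the mean of both libraries, lay at the 53.9 percentile.

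At the 131 shared peaks the libraries ranked the heights alike, with a Spearman rho of 0.904 over 131 peaks. The summits lay within 100 bp of each other at 104 of them and at the same position at 33. The reads of the libraries differed at 21 of the 131 (16.0%, adjusted p under 0.05, two-sided exact binomial test), against 15.7% of all shared peaks. Library 2 was the higher at 4 of the 21, *Lck* 1.56 kb upstream, *Prkcq* in intron 1, *Lcp2* 9.57 kb upstream and *Cblb* in intron 3. Over the regions of all protein-coding genes it was the higher at 518 of 2537 such peaks. The median ratio of library 2 to library 1 was 0.910 at the 131 peaks and 0.883 over all shared peaks. The test set each peak against the total reads of the libraries, not against this median. The read names carry a different sequencing instrument in each library, so a library and its run cannot be told apart.

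**Figure D5:**
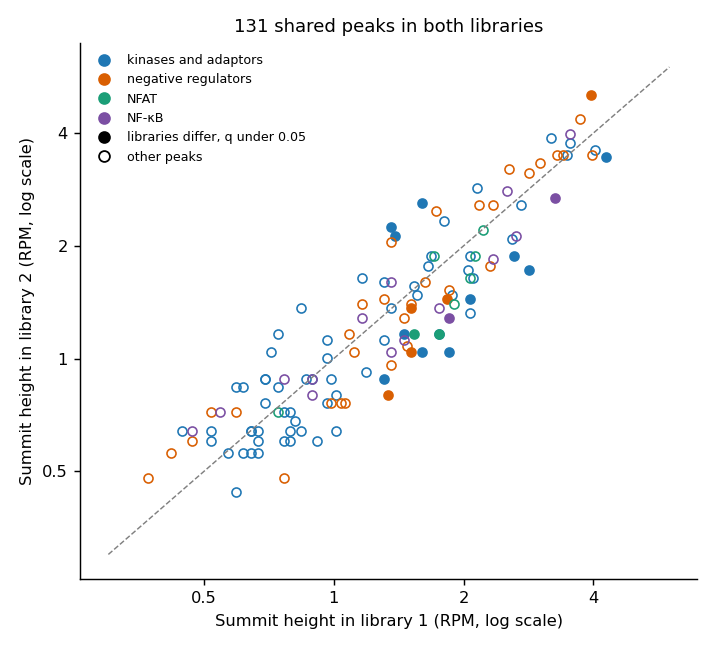
Summit height of the 131 shared peaks in library 1 and library 2 (RPM, log axes), coloured by step, with the line of equal heights. Filled symbols are the 21 peaks at which the libraries differed by the exact binomial test, and most peaks lie near the line.

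The heights of the 131 peaks ran from 0.37 to 3.95 RPM, with a median of 1.16 RPM against 0.801 RPM for all shared peaks. Above the 90th percentile of all shared peaks stood 23 of them, 8 at kinases and adaptors, 10 at negative regulators, 1 at NFAT genes and 4 at NF-κB genes. The median height was 0.881 RPM for kinases and adaptors, 1.33 RPM for negative regulators, 1.52 RPM for NFAT genes and 1.22 RPM for NF-κB genes, with no test between the steps.

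A further 40 genes of the pathway, listed by name and not among the 38, were examined in the same way. Of these, 34 had a shared peak (85%) and 15 had one within 2 kb of the start, with 136 peaks in all and 4.54 per 100 kb. Over all protein-coding genes the shares were 39.3% with a shared peak and 11.7% at the start, with 1.18 peaks per 100 kb, and the regions of the 40 genes were longer, with a median of 48.3 kb against 27.4 kb. The tallest peaks lay at *Ppp3ca*, a catalytic subunit of calcineurin (4.37 RPM in library 1 and 5.49 RPM in library 2), at *Itpr1*, the calcium channel opened by inositol trisphosphate (3.97 and 5.25 RPM, with 21 shared peaks), at *Cd247*, the zeta chain of the receptor (3.83 and 3.85 RPM), and at *Cd3d* and *Cd3g*, which lie side by side and share 1 peak of 3.38 and 3.21 RPM.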

How the data were processed

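Per the study's methods and the labels' processing notes, single-end reads had been aligned to GRCm38 by the authors (Bowtie2 2.3.5.1), who removed reads without a unique position. MACS2 2.1.2 is also named there, with no role given. The authors deposited 1 line per read with position, strand and the mapping quality score, which ranged from 22 to 44 and measures the alignment, not binding. Within a library 0 reads shared 5′ end and strand, so duplicates had been removed, which limits how high a peak can rise. On chromosomes 1 to 19, X and Y there were 40504814 and 24959052 reads, a mean of 2.97 and 1.83 per 200-bp window, and the lowest summits called held 12 and 10 reads.

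Each read was moved 100 bp downstream on its strand, and windows of 200 bp were laid at steps of 50 bp. A window was set against whichever mean was the largest, that of the library or of the surrounding 5 or 10 kb, its own reads included (q of 0.01 per library), and windows within 100 bp were joined. This gave 71726 and 28204 peaks, and 23806 of the former overlapped one of the latter by at least 1 bp. Neighbouring windows overlap, so their tests are not independent. The reads of the libraries in the merged interval of each shared peak were compared by a two-sided exact binomial test, with q of 0.05 over all shared peaks. The principal transcript was the one with the best APPRIS annotation, and the longest of these. Peak calling and the binomial test were tested on simulated data. Sequences were read from the GRCm38.p6 genome of RefSeq.

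The genes, gene lists and tests were chosen with earlier results of these data known. All 38 genes are accounted for. Values in each library were given for the 6 kinases and adaptors, the 5 negative regulators and the 4 NF-κB genes with the tallest shared peaks, the 3 NFAT genes, the genes without a shared peak and the 4 tallest of the other pathway genes, where *Cd3d* and *Cd3g* share the fourth. Values of the remaining genes were added after they had been seen. The alternatives were stricter thresholds, other windows, a mapping quality of at least 30, nearer summits, thinning of library 1, each library alone, other regions and promoters, and other motif settings. Python 3.11.15, NumPy 2.4.6, SciPy 1.17.1 and Matplotlib 3.10.9 were used.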

Additional observations from a re-analysis of the deposited data

How the results depend on the processing

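No paired analysis was possible because a single condition was measured. The stricter thresholds lowered the counts by construction. At a q of 1e-10 there were 21 receptor signalling genes with a shared peak, 38 peaks, 5 genes with a peak at the start and 12.8% of all protein-coding genes. At 5-fold over the background these were 19, 27, 3 and 15.3%, with WGATAR at 81.5% of the summits. Leaving out either replicate gave 143 to 270 peaks, and 42.7% to 66.9% of all genes then had a peak. At the start, 11 to 18 of the receptor signalling genes had a peak, against 13.1% to 28.0% of all genes. The median read density was 2.16 to 2.18. The higher counts came from library 1, the deeper library. A promoter of 1 kb either side left 7 genes, against 7.39% of all genes, and at the stricter thresholds 2.77% (q of 1e-10) and 2.67% (5-fold) of all genes had a peak at the start. WGATAR within 50 bp was found at 51.1% of the summits and AGATAA alone, on either strand, at 40.5%. The median density, 2.102 as the mean of both libraries, was 2.20 for the gene body and 2.005 with 50 kb upstream, and the cause was not tested. The number of shared peaks of single genes moved by more than 1.5 times, or to or from 0, in 140 of 418 combinations of gene and setting. A q of 1e-10 lost *Txk*, *Prkcq*, *Themis*, *Plcg1*, *Cbl*, *Dgka*, *Dgkz*, *Sla2*, *Rel*, *Relb* and *Nfkbia*. The 5-fold minimum lost *Lcp2*, *Grap2*, *Rasgrp1* and *Csk*, whose peaks were tall, with *Txk*, *Prkcq*, *Plcg1*, *Dgka*, *Dgkz*, *Sla2*, *Rel*, *Relb* and *Nfkbia*. Summits within 100 bp lost *Fyn*, and gene bodies alone lost *Dgka* and *Nfatc3*. With library 1 alone, each of the 38 genes had a peak, against 66.9% of all genes.

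Library 2 held fewer peaks at lower depth, and library 1 thinned to the same number of reads still had 47264 against 28204, so the libraries differed beyond depth. Without an input library, open chromatin and Gata3 binding cannot be told apart at single peaks. A peak in a gene was not shown to act on it, and expression was not analysed here.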

Other observations

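The reads upstream of *Ptprc* set in abruptly, which was seen after the values had been plotted. In 200-bp bins, library 1 had 0.0247 RPM at 5.3 kb before the start, 0.0988 RPM at 5.1 kb, 0.321 RPM at 4.9 kb and 0.469 RPM at 4.7 kb. Library 2 had 0 reads at 5.3 kb, 0.0801 RPM at 5.1 kb, 0.24 RPM at 4.9 kb and 0.441 RPM at 4.7 kb. No shared peak was called in the 10 kb upstream of *Ptprc*, although the reads there were raised as far as the start in both libraries. Windows were tested against means that include the surrounding 5 and 10 kb, which these reads also raised. The cause of the abrupt onset was not tested.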
